A study of Homo sapiens with 36 samples.

Results

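The regions described here are stretches of the human genome in 786-O cells, a clear cell renal carcinoma line, at which anti-V5 Cut&Run gave peaks mainly when the tagged HIF-α carried the HIF-1α intrinsically disordered region (IDR). Cut&Run cleaves chromatin around an antibody-bound protein and sequences the released fragments. The members were chosen by the peak calls themselves: overlapping peaks of all 18 anti-V5 lists were merged into 61215 regions, regions with a peak in 2 or more of the 3 wild-type (WT) lists were dropped, and a region was kept where the lists with a peak among the 6 with the HIF-1α IDR outnumbered those among the 6 with the HIF-2α IDR by at least 5. This left 333 regions of 60717, and of the 13437 regions called in at least 5 exogenous lists, which alone could have met the rule, they were 2.48%. The opposite rule, a surplus of at least 5 lists with the HIF-2α IDR, was met by 24 regions, or 0.179%, called reverse regions below. Since calls in these lists defined the members, their presence in one set of lists and absence from the other is a description and was not tested.

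The 18 lists came from 6 lines with 3 replicates each, peaks having been called against mouse IgG of the same line, and with the IgG libraries the series held 36 samples. All lines were 786-O, which lacks functional VHL and functional HIF-1α and keeps its endogenous HIF-2α. WT cells had no tag and showed what the antibody gave by itself; the knock-in (KIN) line was 1 homozygous clone with V5-Halo on the N terminus of endogenous HIF-2α. The other 4 lines were stable lines in which an L30 promoter drove an exogenous V5-Halo fusion, namely HIF-1α, HIF-2α, HIF-2α/1α (residues 1-365 of HIF-2α followed by 364-826 of HIF-1α) and HIF-1α/2α (residues 1-363 of HIF-1α followed by 366-870 of HIF-2α). HIF-1α and HIF-2α/1α therefore shared the HIF-1α IDR and differed in the part with the DNA-binding domain (DBD), while HIF-2α and HIF-1α/2α shared the HIF-2α IDR, and in these 4 lines untagged endogenous HIF-2α was still present. Each fusion was 1 stable line, so effects of the IDR or DBD cannot be told apart from other differences between lines. These include the amount of fusion protein, which the peak lists do not give. The part with the DBD also holds the dimerization domain. Nothing in the labels says that the replicates were separate cultures, so the spread between them may be technical.

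HIF-α subunits are basic helix-loop-helix PAS proteins that pair with HIF-1β and bind the hypoxia response element (HRE), whose core is ACGTG or GCGTG. HIF-1α and HIF-2α have closely similar DBDs, whereas their C-terminal parts, which hold the IDR with its transactivation domains, have diverged. HIF-1α is best known for glycolytic genes and HIF-2α for genes of growth and erythropoiesis, and in VHL-deficient renal carcinoma HIF-2α is the main driver. The question behind the comparison is what the IDR adds to the choice of binding sites.

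The lists were unequal, and this bears on every count below. Peaks per list ranged from 392 to 9508 for WT, from 3984 to 13193 for KIN, from 5906 to 20651 for the 6 lists with the HIF-2α IDR (mean 12814 ± 6123, SD, n = 6) and from 12371 to 20808 for the 6 with the HIF-1α IDR (16949 ± 3275, SD, n = 6). The depth read back from the peak statistics lay between 0.241 and 0.625 fragments per base over the 18 libraries. Replicate 2 gave the longest list in each line and stood well apart in WT, with 9508 peaks against 392 and 743, and in HIF-2α, with 20651 against 6590 and 5906. Cut&Run libraries without molecular identifiers can hold copies of 1 molecule, and peak values carry no interval here.

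The sequences around 8 of the strongest members are shown because they carry the features that are counted further on: GC-rich DNA at gene starts in some, distal DNA in others, with a core HRE near the summit in 5 of the 8. They belong to the highest-ranked members called in all 6 lists with the HIF-1α IDR and in none with the HIF-2α IDR, and the sequences of the regions at GPIHBP1, BLTP2 and LTBP4, which ranked among them, are not shown. Each run is 101 bases of the plus strand of hg38 with the summit at its centre, and capitals mark ACGTG or GCGTG read on either strand. The name is that of the protein-coding gene that holds the summit or, between genes, of the gene with the nearest canonical transcription start site (TSS).
BAK1, intergenic, chr6:33599707-33599807: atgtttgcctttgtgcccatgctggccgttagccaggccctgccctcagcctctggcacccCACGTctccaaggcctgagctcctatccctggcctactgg
GADD45G, intergenic, chr9:89756012-89756112: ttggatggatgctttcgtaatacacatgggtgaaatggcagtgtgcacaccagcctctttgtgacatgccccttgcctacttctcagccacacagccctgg
TPCN1, intron, chr12:113246070-113246170: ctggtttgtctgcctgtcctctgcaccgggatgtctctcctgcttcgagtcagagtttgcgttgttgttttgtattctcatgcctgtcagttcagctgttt
SLC66A1, promoter, chr1:19312195-19312295: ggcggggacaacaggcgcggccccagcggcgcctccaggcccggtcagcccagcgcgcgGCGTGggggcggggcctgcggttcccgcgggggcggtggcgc
VPS13D, intron, chr1:12486784-12486884: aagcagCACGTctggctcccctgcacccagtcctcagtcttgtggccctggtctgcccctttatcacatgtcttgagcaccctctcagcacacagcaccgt
SPRED2, intron, chr2:65383135-65383235: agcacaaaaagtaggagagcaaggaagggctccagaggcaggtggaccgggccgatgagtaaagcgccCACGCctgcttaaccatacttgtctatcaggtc
ARSG, intron, chr17:68318548-68318648: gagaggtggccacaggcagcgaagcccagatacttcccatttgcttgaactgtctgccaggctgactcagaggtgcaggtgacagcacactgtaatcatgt
WDR59, promoter, chr16:74985296-74985396: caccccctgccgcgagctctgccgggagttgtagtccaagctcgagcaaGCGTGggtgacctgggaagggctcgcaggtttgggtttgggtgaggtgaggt

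The 333 members fell into 3 call patterns. A peak in all 6 lists with the HIF-1α IDR and in none with the HIF-2α IDR was found at 44 regions, 6 lists against 1 at 163, and 5 against 0 at 126. HIF-1α called 307, 327 and 308 of the members in replicates 1, 2 and 3, and HIF-2α/1α called 315, 328 and 287. HIF-2α called 5, 89 and 2, and HIF-1α/2α called 11, 45 and 11. Of the 163 members with a single list from the HIF-2α IDR, that list was HIF-2α replicate 2 at 89 and HIF-1α/2α replicate 2 at 45, so the longest lists of these 2 lines supplied most of the exceptions. Among the 126 members with 1 missing list, HIF-2α/1α replicate 3, the shortest of the 6, was the one missing at 46. Of the members not called in a list with the HIF-2α IDR, 0.302% to 1.23% had a peak of that list within 500 bp. Within 2 kb the share was 2.11% to 10.2%. For other regions called in 5 to 7 exogenous lists the shares were 0.179% to 1.97% and 4.68% to 12.1%. Few peaks just outside a region were thus not particular to the members.

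**Figure D1:**
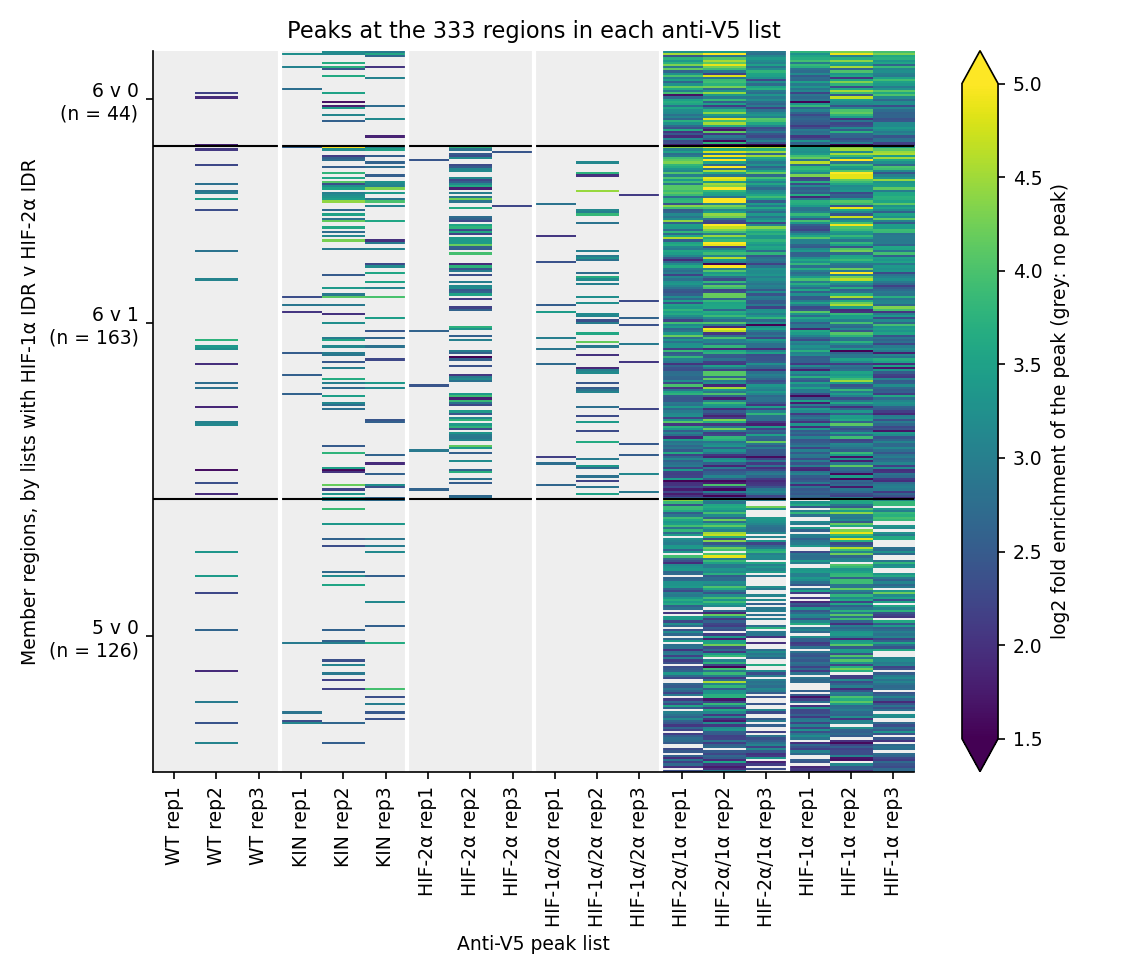
Each row is 1 of the 333 regions, grouped by the number of lists with the HIF-1α IDR against lists with the HIF-2α IDR, and each column is 1 of the 18 anti-V5 peak lists; colour is the log2 fold enrichment of the peak and grey means no peak. The 12 columns other than HIF-2α/1α and HIF-1α are mostly grey, and the fullest of them are HIF-2α replicate 2 with 89 regions, KIN replicate 2 with 86 and KIN replicate 3 with 61.

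The members were mid-ranked peaks of the lists that called them. Fold enrichment is the height of a peak over its local background as the peak caller gave it, and a rank is given as the percentile of a peak's −log10 q within its own list. The median percentile of the members was 54.3, 59.6 and 43.1 in HIF-2α/1α and 47.7, 59.2 and 48.3 in HIF-1α (replicates 1, 2 and 3). The median fold was 7.51, 8.89 and 7.73 in HIF-2α/1α and 7.19, 8.85 and 7.75 in HIF-1α. At the 2566 regions called in all 12 exogenous lists the same 6 medians of fold lay between 14.3 and 27.3, and the median percentiles between 87.4 and 92.7, so the shared regions were well above the members in every one of the 6 lists. At the 4959 other regions called in 5 to 7 exogenous lists, which had as many calls as the members but another distribution over the lines, the median fold was 6.44 to 7.45 and the median percentile 35.6 to 46.7. In each of the 6 lists the members' median was above that of these other regions. The rule asked for calls of the members in at least 5 of these 6 lists, and not of the other regions. The contrast is therefore a description and was not tested. Where a list with the HIF-2α IDR did call a member, its median percentile there was 21.1 to 52.1 over the 6 lists.

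**Figure D2:**
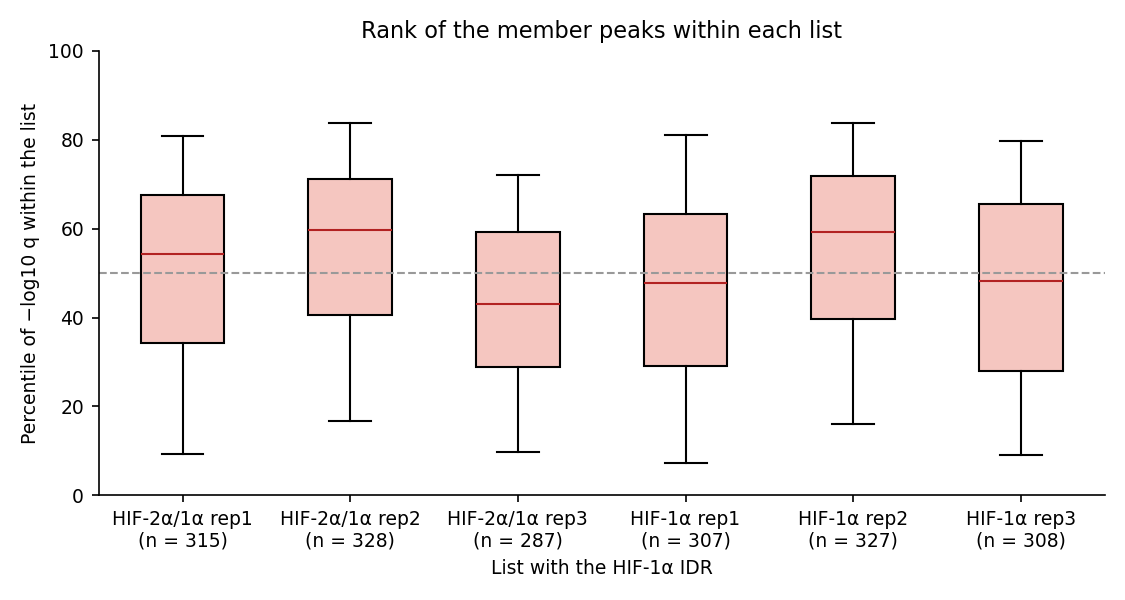
Boxes show the percentile of −log10 q of the member peaks within each of the 6 lists with the HIF-1α IDR (line, median; box, quartiles; whiskers, 5th to 95th percentile), with the number of members called under each name. The medians lie between 43.1 and 59.6, near the dashed line at 50.

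Of the 44 members called 6 to 0, the 15 with the highest mean percentile over the 6 lists are described singly. The first was an intergenic region (chr6:33599287-33600094) 19481 bp upstream of BAK1, which encodes a pro-apoptotic pore-forming protein of mitochondria. Its fold was 13.6, 19.5 and 15.5 in HIF-1α and 9.64, 10.6 and 7.54 in HIF-2α/1α, and KIN called it in replicates 2 and 3 with folds of 9.12 and 7.68. All 3 HIF-1α values were above all 3 HIF-2α/1α values, but the log2 difference of 0.92 ± 0.50 (SE) did not pass limma's test across regions (adjusted p = 0.488). The SE of 0.50 was the same for every member that limma tested, so here and below it does not describe the spread of a single region. A region 151050 bp downstream of the TSS of GADD45G (chr9:89755912-89757291), a stress-responsive gene of growth arrest, had folds of 9.74, 29.7 and 19.6 in HIF-1α and 23.0, 54.5 and 6.84 in HIF-2α/1α. Here the lines overlapped, and all 3 KIN lists had a peak too, with folds of 9.44, 8.79 and 12.1.

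VPS13D, a lipid transfer protein needed for mitochondrial and peroxisomal upkeep, held the other 6 to 0 member that all 3 KIN lists called. In its intron (chr1:12486051-12487245) the fold was 12.8, 22.8 and 14.2 in HIF-1α, 7.51, 19.0 and 6.90 in HIF-2α/1α and 8.32, 13.2 and 4.11 in KIN. At this region and at the GADD45G region all 3 lists of endogenous tagged HIF-2α had a peak, while the absence from the 6 exogenous lists with the HIF-2α IDR was fixed by the rule.

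Promoter members among the 15 were found at BLTP2, SLC66A1, WDR59 and C15orf62. At BLTP2 (chr17:28645157-28645565, summit 225 bp upstream of the canonical TSS) the 3 HIF-1α replicates were nearly equal, 12.8, 13.1 and 13.1, and HIF-2α/1α gave 13.3, 16.5 and 10.6. SLC66A1 encodes a lysosomal exporter of basic amino acids. Its promoter (chr1:19312037-19313021, 81 bp upstream of the TSS) had a GC content of 77.4% around the summit and folds of 14.4, 10.4 and 6.20 in HIF-1α and 19.8, 29.4 and 11.3 in HIF-2α/1α. WDR59 is a subunit of the GATOR2 complex, which signals amino acid supply to mTORC1. Its promoter (chr16:74985078-74985506) gave 8.98, 10.0 and 8.14 in HIF-1α and 9.86, 4.51 and 11.5 in HIF-2α/1α. The region 234 bp upstream of C15orf62, in an intron of DNAJC17 (chr15:40769043-40770208), gave 11.2, 20.1 and 11.3 in HIF-1α and 6.23, 15.1 and 9.28 in HIF-2α/1α. None of these 4 promoters had a peak in any KIN or WT list.

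In gene bodies, the intron of SPRED2, an inhibitor of Ras-ERK signalling (chr2:65382756-65383422), had folds of 7.15, 6.23 and 8.58 in HIF-1α and 17.9, 15.0 and 9.32 in HIF-2α/1α. Here the HIF-2α/1α values were the higher ones, without overlap, and the log2 difference of −0.79 ± 0.50 (SE) did not pass either (limma, adjusted p = 0.570). The intron of ASTN2 (chr9:116502007-116502850) gave 5.65, 11.6 and 7.63 in HIF-1α and 16.0, 28.6 and 11.3 in HIF-2α/1α, ranges that overlapped. KIN replicate 2 had a peak in each of these introns, of 5.25 at SPRED2 and 12.3 at ASTN2. TPCN1 encodes an endolysosomal cation channel. Its intronic region (chr12:113245910-113246961) gave 7.65, 12.0 and 11.6 in HIF-1α against 13.4, 17.6 and 8.21 in HIF-2α/1α and 12.7 in KIN replicate 2. ARSG, a lysosomal sulfatase, had an intronic member (chr17:68318341-68318838) with 6.68, 16.2 and 9.45 against 6.13, 7.74 and 13.8. LTBP4, which binds latent TGF-β in the extracellular matrix, was called over a coding exon (chr19:40597162-40597503) with 15.6, 21.0 and 9.96 against 10.3, 23.1 and 9.23. That summit lay 88 bp from an annotated LTBP4 transcript start and 4046 bp upstream of the canonical TSS. The members in RIPOR3 and near GPIHBP1 and PPARGC1A, the last 516444 bp from the TSS of that coactivator of mitochondrial biogenesis, had folds between 4.20 and 15.2 in the same 6 lists. Of the 15 regions, 8 held a core HRE within 50 bp of the summit and 8 had a peak in at least 1 KIN list. Of all 44 members called 6 to 0, 19 (43.2%) held a core HRE and 17 (38.6%) had a KIN peak. A KIN peak was found at 58.5% of all regions called in at least 5 exogenous lists.

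The edge of the rule was gradual. The 3 strongest members with a difference of 5 lists lay near NUDT14 (chr14:105204436-105205132), in ENPP7 (chr17:79739153-79739637) and at the TSS of ATP2C1 (chr3:130893980-130894342), each called 6 to 1. ATP2C1 encodes the calcium and manganese pump of the Golgi. Its peak was 9.45, 8.99 and 22.1 in HIF-1α and 11.3, 27.3 and 22.2 in HIF-2α/1α, with 1 further peak of 5.42 in HIF-2α replicate 3. The region near NUDT14 had a peak in all 3 KIN lists (5.97, 33.7 and 8.46) and one of 13.7 in HIF-2α replicate 2, beside 11.7, 20.4 and 11.0 in HIF-1α and 21.1, 80.5 and 24.0 in HIF-2α/1α. At ENPP7 the folds were 9.90, 22.7 and 17.2 in HIF-1α and 8.42, 12.7 and 13.0 in HIF-2α/1α, with further peaks of 7.08 in HIF-2α replicate 2, 9.30 and 11.4 in KIN replicates 2 and 3 and 4.25 in WT replicate 2. The peaks of all 3 regions in every list with the HIF-1α IDR follow from the 6 to 1 pattern. The 3 strongest regions just outside, with a difference of 4 lists, were the promoter of FAM220A (chr7:6348843-6349264), an intron of PCP4L1 (chr1:161260803-161262149) and a region near DYRK1A (chr21:37533128-37533779), each called 6 to 2. The FAM220A promoter had folds of 24.6, 41.0 and 32.0 in HIF-1α and 19.7, 13.6 and 7.79 in HIF-2α/1α, against 16.8 and 6.89 in HIF-1α/2α replicates 1 and 2. At PCP4L1 the values were 5.78, 57.1 and 17.4 in HIF-1α and 28.2, 53.5 and 28.6 in HIF-2α/1α, against 14.4 and 6.60 in HIF-2α replicates 2 and 3. Near DYRK1A they were 13.3, 17.3 and 16.6 in HIF-1α and 18.8, 73.0 and 9.54 in HIF-2α/1α, against 13.9 in HIF-2α and 9.88 in HIF-1α/2α, both replicate 2. With the HIF-1α IDR, the folds just outside (5.78 to 73.0) and just inside (8.42 to 80.5) overlapped widely. In all, 1099 regions had a difference of 4 lists, so that 1432 lay at 4 or above.

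KIN calls did not count toward the difference in lists, so they are a readout of endogenous HIF-2α that did not choose the members. KIN peaks were merged with the others to set the regions, and leaving out 1 KIN list gave 333 or 334 members. KIN called 14, 86 and 61 of the 333 members (4.20%, 25.8% and 18.3%). At the other regions called in 5 to 7 exogenous lists the shares were 4.62%, 23.5% and 13.8%, and at the regions called in all 12 they were 66.6%, 90.4% and 87.5%. KIN replicate 1 was slightly lower and replicates 2 and 3 slightly higher at the members than at regions with as many calls, and no test was run, since regions are not replicates. At least 1 KIN list called 119 members (35.7%), beside 58.5% of all regions called in at least 5 exogenous lists and 33.0% of those with 5 to 7 calls. At least 2 KIN lists called 37 members (11.1%), beside 33.1% and 7.72%. The reverse regions had a KIN peak at 1 of 24, in replicate 3. By these shares endogenous HIF-2α was called at the members about as often as at other regions with a like number of calls.

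The untagged WT cells had a peak at 32 members (9.61%), all in replicate 2, whose list of 9508 peaks far exceeded the other WT lists. The median percentile of these peaks within that list was 76.8, and their median fold was 6.85. At the other regions with 5 to 7 calls 10.6% had a WT peak, and in WT replicate 2 the same medians were 77.1 and 6.75. Without the 32, 301 members and 24 reverse regions were left, and the part that antibody background had in the rest was not tested.

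**Figure D3:**
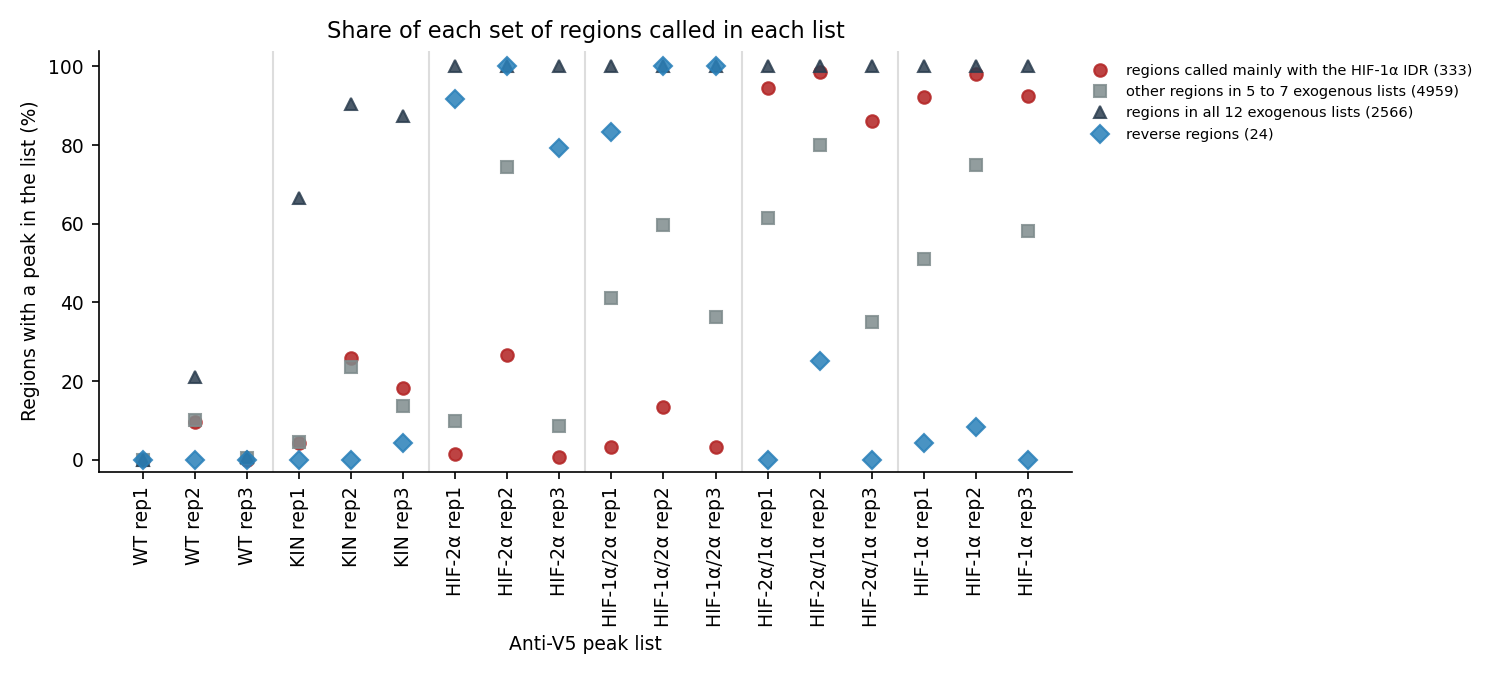
The share of 4 sets of regions with a peak is plotted for each of the 18 anti-V5 lists (vertical axis, percent of the set). In the KIN lists the 333 members (4.20%, 25.8% and 18.3%) lie close to the other regions called in 5 to 7 exogenous lists and far below the regions called in all 12; the positions in the 12 exogenous lists follow from how the sets were defined.

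HIF-1α and HIF-2α/1α differ in the DBD and share the IDR, and the rule bounded how far their calls at the members could differ, since 207 members were in all 6 of their lists and the other 126 missed only 1. Members called per library averaged 314 ± 11.3 (SD, n = 3) for HIF-1α and 310 ± 20.9 (SD, n = 3) for HIF-2α/1α. The difference of 4 is a description of calls that the rule had used. Peak height, which the rule did not balance between the lines, was compared at the 207 members called in all 6 lists, as the median log2 fold centred on the median of all 6181 regions called in those lists. It was −0.46, −0.57 and −0.56 in HIF-1α and −0.60, −0.67 and −0.50 in HIF-2α/1α. The difference of 0.06 on the log2 scale did not exceed the spread (two-sided exact permutation test, p = 0.4, where 3 against 3 cannot go below 0.1). That all 6 values were negative is no result, since the 6181 regions include the strong ones called in all 12 exogenous lists and the members do not.

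Single regions were tested with limma across the 6181 regions. In all, 16 of them (0.259%) differed between the lines HIF-1α and HIF-2α/1α at an adjusted p below 0.05, and none of the 207 members did. Of the 16, 10 were higher in HIF-1α and 6 higher in HIF-2α/1α. At an unadjusted p below 0.05 there were 15 members (7.25%), against 687 regions (11.1%). The 16 calls depended on single libraries: 0 were left without HIF-1α replicate 1 or 3 (553 and 573 at an unadjusted p below 0.05), 9 without HIF-1α replicate 2, and 4, 3 and 5 without HIF-2α/1α replicates 1, 2 and 3, and 0 without centring (566 unadjusted). The lowest adjusted p of a member by limma was 0.188, at GNAI2, named here after its values were seen. The gene encodes an inhibitory G-protein α subunit, and the region (chr3:50246059-50247137) had folds of 10.6, 22.9 and 23.7 in HIF-1α and 6.79, 7.30 and 6.38 in HIF-2α/1α, a log2 difference of 1.51 ± 0.50 (SE). With summit fragments per depth in place of the fold, 753 regions (12.2%) passed in limma and 15 members (7.25%) did, 12 of them higher in HIF-1α, a direction that 369 of all regions (5.97%) had. In the simulation 22% of regions with a 4-fold difference were recovered and none with a 2-fold difference, so the fit on the fold could miss differences of that size.

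Many members lay at gene starts, and the features of position and sequence given from here on were compared as shares, with no test. A summit within 1 kb of the canonical TSS of a protein-coding gene was found at 114 members (34.2%), each at a different gene. The share was 26.8% for the other regions with 5 to 7 calls, 23.3% for those called in all 12 exogenous lists, 13.5% for all 60717 regions and 1 of 24 for the reverse regions. With every annotated transcript start counted the shares were 43.2%, 34.4%, 32.7%, 19.8% and 1 of 24. The median distance to the canonical TSS was 9044 bp for the members, 17448 bp for the others with 5 to 7 calls and 98149 bp for the reverse regions. In terms of annotation 129 member summits (38.7%) were intronic, 105 (31.5%) intergenic, 42 (12.6%) in a UTR, 34 (10.2%) in a lncRNA gene, 12 (3.60%) in a coding exon and 11 (3.30%) in another exon. Chromosome 19, which is dense in genes, held 30 members (9.01%), compared with 4.84% of the regions called in at least 5 exogenous lists. A region called in all 12 exogenous lists lay within 10 kb of 17 members (5.11%), of 10.1% of the others with 5 to 7 calls and of 2 of the 24 reverse regions.

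Base composition went with position. The median GC content in 301 bases around the summit was 58.8% for the members (quartiles 51.5% and 66.1%), 52.8% for the others with 5 to 7 calls, 54.2% for the regions in all 12 lists and 45.8% for the reverse regions. Among promoter regions alone it was 68.3% for the members and 66.4% for the others with 5 to 7 calls, and away from promoters 54.5% and 49.2%. The lists differed in the same sense, with a median GC content of their peaks of 53.4% ± 0.805 (SD, n = 6) for the HIF-1α IDR and 51.5% ± 1.21 (SD, n = 6) for the HIF-2α IDR, and the part that base composition of the libraries had in the choice of members was not tested.

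The share of members with a core HRE lay between those of the other sets. ACGTG or GCGTG, on either strand within 50 bp of the summit, was found at 99 members (29.7%), beside 16.5% in windows of the same length 1 kb away. The share was 25.0% at the others with 5 to 7 calls, 31.4% at the regions in all 12 lists, 16.5% at all 60717 regions and 8 of 24 at the reverse regions. The 44 members called 6 to 0 had a core HRE at 19 (43.2%). By form, GCGTG was found at 64 members (19.2%) and ACGTG at 46 (13.8%), as in SLC66A1 and WDR59 for the first and BAK1 and VPS13D for the second among the runs printed above. TACGTG, the extended form that contains ACGTG, was found at 8 members (2.40%), against 5 of the 24 reverse regions, 5.18% of the regions in all 12 lists and 1.87% of all regions.

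For that contrast, chosen after the counts were seen, 4 of the 5 reverse regions with TACGTG read as follows, again with ACGTG or GCGTG of either strand in capitals and 101 bases of the plus strand of hg38 each.
ST8SIA2, nearest TSS, chr15:92185086-92185186: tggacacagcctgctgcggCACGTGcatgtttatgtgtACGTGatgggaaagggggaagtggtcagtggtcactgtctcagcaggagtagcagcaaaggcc
LHX5, nearest TSS, chr12:113650690-113650790: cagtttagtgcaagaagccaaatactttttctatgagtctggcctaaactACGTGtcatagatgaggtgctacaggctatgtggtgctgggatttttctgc
NAV2, chr11:19603120-19603220: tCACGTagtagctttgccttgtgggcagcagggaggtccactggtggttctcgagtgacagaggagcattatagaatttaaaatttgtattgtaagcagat
GLOD5, nearest TSS, chrX:48754604-48754704: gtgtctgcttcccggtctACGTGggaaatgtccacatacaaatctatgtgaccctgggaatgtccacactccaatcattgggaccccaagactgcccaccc

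Of the other motifs, the SP/KLF box GGGCGG, bound by zinc finger factors at GC-rich promoters, was found at 80 members (24.0%), as in the SLC66A1 promoter. It was found at 15.1% of the others with 5 to 7 calls, 14.8% of the regions in all 12 lists, 7.77% of all regions and none of the 24 reverse regions. Within promoters the shares were 48.2% for the members and 40.8% for the others with 5 to 7 calls, and away from promoters 11.4% and 5.75%. The 6 to 0 members had it at 6 of 44 (13.6%), below the members as a whole. The AP-1 site TGAGTCA, the recognition sequence of FOS-JUN dimers, was found at 19 members (5.71%), all of them away from promoters, where the share was 8.68%. The corresponding share away from promoters was 10.7% at the others with 5 to 7 calls and 12.3% at the regions in all 12 lists. Both motifs were read on either strand within 50 bp of the summit, and a match describes the letters only.

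Across all 13437 regions called in at least 5 exogenous lists promoter share and GC content were higher toward the HIF-1α IDR, though not at every step. From a difference of −3 to one of 5 the share within 1 kb of a TSS went from 6.94% (n = 144) through 22.8% at 0 (n = 3610) to 34.9% (n = 289), most of the change lying at or below a difference of 2, where it was 33.8% (n = 2460). Over the same steps the median GC content went from 45.2% through 53.2% to 58.8%, and the share with an SP/KLF box from 2.78% through 14.0% to 25.6%. The share with a core HRE was 20.8%, 29.5% and 27.7% at these 3 points. At a difference of 6 (n = 44) the first 3 features were lower than at 5, with 29.5% within 1 kb of a TSS, a median GC content of 56.6% and an SP/KLF box at 13.6%, while a core HRE was found at 43.2%.

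**Figure D4:**
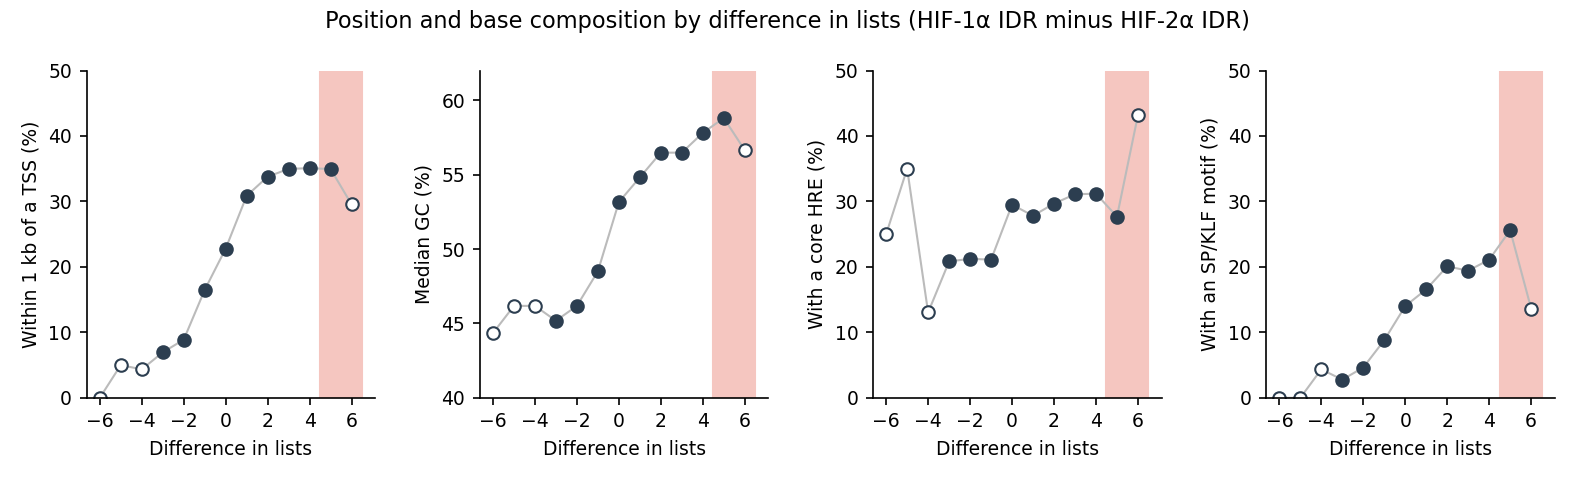
The 4 panels show, for regions called in at least 5 exogenous lists, the share within 1 kb of a canonical TSS, the median GC content (axis from 40%), and the shares with a core HRE and with the SP/KLF box, against the difference in lists (HIF-1α IDR minus HIF-2α IDR). Open points stand for fewer than 50 regions and the shaded band holds the 333 members, whose promoter share of 34.9% at a difference of 5 is close to the 33.8% at a difference of 2 and is followed by 29.5% at 6.

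Genes for which HIF proteins are known were looked up by list, against a background in which members made up 114 of the 3814 promoter regions called in at least 5 exogenous lists. Of 22 genes of glycolysis and glucose uptake, none had a member within 1 kb of its canonical TSS or as the nearest gene, and 14 had a region called in at least 5 exogenous lists within 1 kb, 13 of them one called in all 12. Of 50 other hypoxia-responsive genes none had a promoter member, 33 had a promoter region called in at least 5 lists and 23 one called in all 12. The 18 HIF-2α-associated genes of renal carcinoma had no promoter member, 5 had a promoter region called in at least 5 lists and none one called in all 12. The lists of 16 AP-1 and stress transcription factors, 40 chromatin regulators and the 6 example genes of the study had no promoter member either, against 6, 15 and 4 genes with a promoter region called in at least 5 lists. With so few listed genes at such regions, counts of 0 are near the background share and say nothing particular about the members.

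The closest cases lay away from canonical promoters. Apart from GYS1, the members of this paragraph are named because they lay nearest to a listed gene, a choice made after their values were seen. A member in an intron of GYS1, the muscle form of glycogen synthase (chr19:48978922-48979293), was within 1 kb of an annotated internal transcript start but not of the canonical TSS, and its fold was 14.2, 9.83 and 14.9 in HIF-1α, 10.0, 6.87 and 8.04 in HIF-2α/1α and 8.60 in HIF-2α replicate 2. INSIG2, which retains the SREBP-SCAP complex in the endoplasmic reticulum, was the nearest gene of a member 158520 bp away (chr2:118246796-118247232), called with 7.89, 11.0 and 7.94 in HIF-1α and 12.2 and 9.34 in HIF-2α/1α replicates 1 and 2. EPAS1, the gene of HIF-2α itself, held a weak intronic member (chr2:46329861-46331109) with 5.50, 5.01 and 6.20 in HIF-1α and 3.40, 4.48 and 7.12 in HIF-2α/1α. That region also had peaks of 11.6 in HIF-1α/2α replicate 2, 10.1 in KIN replicate 2 and 3.85 in WT replicate 2, so that the highest fold there came from a list with the HIF-2α IDR. CREBBP, a histone acetyltransferase, was the nearest gene of a member in an intron of ADCY9 (chr16:3953951-3955157) with 9.17, 7.37 and 8.58 in HIF-1α and 6.32, 5.79 and 5.02 in HIF-2α/1α.

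The 24 reverse regions were mostly distal, with a median GC content of 45.8%, and the median percentile of their peaks was 57.0, 86.6 and 48.1 in HIF-2α and 59.4, 83.3 and 60.7 in HIF-1α/2α, in lists of other lengths than those that called the members. The median fold was 9.26, 23.6 and 7.59 in HIF-2α and 9.75, 19.9 and 10.3 in HIF-1α/2α. The strongest lay 255741 bp from POU3F1 (chr1:38301522-38303255), with folds of 14.3, 82.9 and 16.9 in HIF-2α, 21.6, 69.3 and 22.9 in HIF-1α/2α and 12.8 in HIF-2α/1α replicate 2. Others were in introns of ANKFN1 (chr17:56164320-56165864) and of the receptor tyrosine kinase gene ALK (chr2:29421191-29421975), near SH2D1B (chr1:162416343-162417247), and 82779 bp from PPP1R3C (chr10:91549961-91550866), a glycogen-targeting phosphatase subunit. Their folds lay between 7.94 and 71.5 where called.

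The set that met the rule changed when the lists were cut to equal length. Every tagged list was reduced to its 3984 strongest peaks, the length of the shortest, KIN replicate 1, whose calls the difference in lists does not use. Then 64 regions met the rule and 84 met the reverse rule, so that the excess of the HIF-1α direction was gone. Only 2 of the 64 overlapped an original member. Of the 333 members, 217 had no peak left in any of the 6 reduced lists with the HIF-1α IDR and none was in all 6. The members had median percentiles of 43.1 to 59.6 in lists of 12371 to 20808 peaks, so a cut this short was bound to remove most of their peaks. Of the 84 regions, 54 had been called in 11 or 12 of the full exogenous lists, as had 12 of the 64. Most of the 84 were thus not found mainly with the HIF-2α IDR in the full lists. The 64 regions were also close to promoters (45.3% within 1 kb of a TSS) and GC-rich (median 60.6%), and the 84 were distal (7.14%) with a median of 47.5%. When peaks were instead rescaled to the lowest depth, 314 regions met the rule, 251 of them overlapping original members, and 22 met the reverse rule. Every list with the HIF-1α IDR was needed for the count: leaving out any 1 of the 6 left 50 to 91 regions, since a difference of 5 then had to come from 5 lists, while leaving out HIF-2α replicate 2 raised it to 829 and HIF-1α/2α replicate 2 to 631. The number of members and the excess over the reverse regions are thus values of these lists at their deposited lengths. The direction of the promoter share and GC content between the 2 sets was the same with full lists, equal lists and equal depth.

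**Figure D5:**
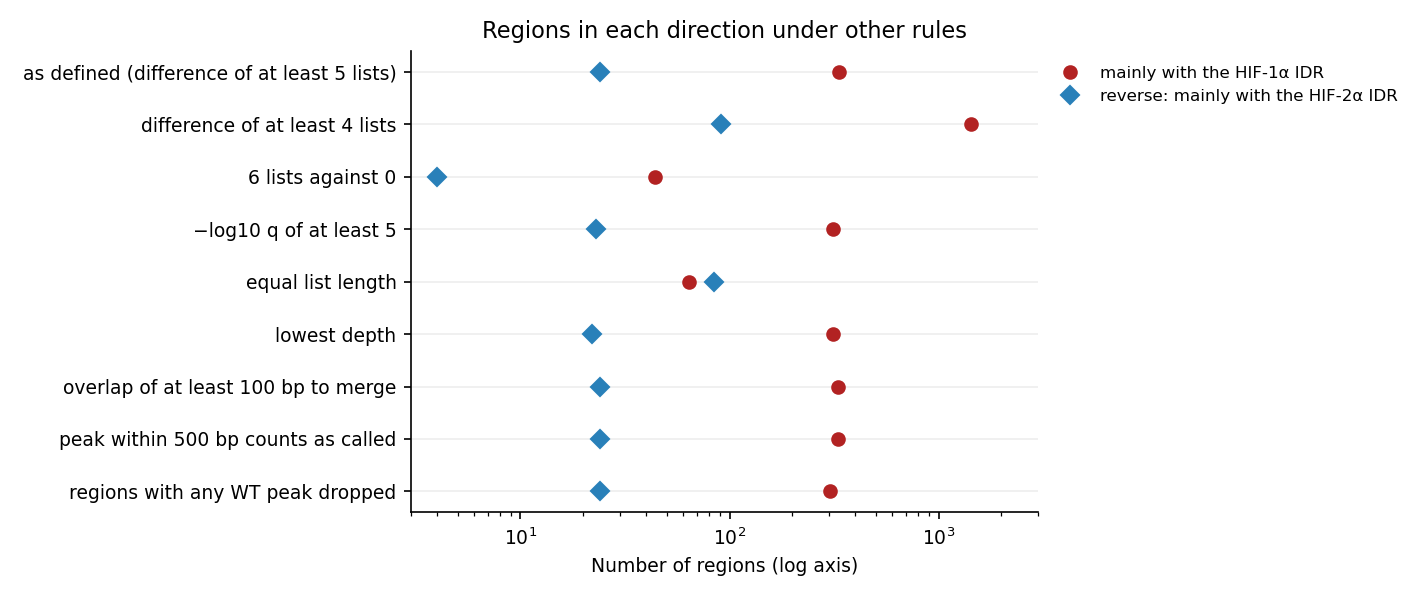
Points give the number of regions called mainly with the HIF-1α IDR (circles) and with the HIF-2α IDR (diamonds) under the rule and 8 alternatives, on a log axis. The excess of circles holds in all rows except the one with lists of equal length, where 64 regions stand against 84. Of these 84, 54 had been called in 11 or 12 of the full exogenous lists, as had 12 of the 64.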

How the data were processed

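The authors aligned Cut&Run reads to hg38 with Bowtie2 2.3.4.1 (version from the submitters' processing notes; fragments of 10 to 700 bp), called peaks per replicate with MACS2 (q 0.01, gaps up to 400 bp, duplicates kept) with mouse IgG of each line as the control, and removed blacklisted regions with bedtools 2.28.0. The deposited fold enrichment, a ratio of peak height to local background, and the deposited −log10 p and −log10 q values at the summit were used as the files give them. The 18 IgG samples entered only as controls of the peak calling. Overlapping peaks of the autosomes, X and Y were merged. The summit of a region was that of its peak with the highest percentile of −log10 q in its own list. TSSs came from GENCODE 44, the canonical transcript of each protein-coding gene, and motifs and GC content from the hg38 sequence within 50 and 150 bp of the summit. The depth of each library was read back from the fold and −log10 p of its peaks; no spike-in is stated.

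The members and gene lists were chosen with earlier results of these data known. Named regions were the 15 members called 6 to 0 with the highest mean percentile, members within 1 kb of a listed gene's TSS, the 5 strongest reverse regions, and the 3 strongest regions on each side of the threshold; others are said to have been picked later. The DBD comparison used exact permutation tests over libraries and limma 3.58.1 (R 4.3.3) on centred log2 fold with Benjamini-Hochberg adjustment, tested on simulated data. Lists of equal length and depth, other thresholds, merging rules and left-out replicates were tried. Some items near or within member regions are not reported here.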

Additional observations from a re-analysis of the deposited data

How the results depend on the processing

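The 333 members became 1432 with a difference of at least 4 lists, 44 with 6 lists against 0 and 64 with lists of equal length. With −log10 q of at least 5, equal depth, the other merging and calling rules or all WT peaks removed the count was 301 to 332. A like count was not always the same set. Of the 314 regions with −log10 q of at least 5, 224 overlapped original members, as did 251 of the 314 at equal depth. Leaving out 1 list gave 50 to 829. With replicates 1 and 3 alone, an alternative chosen after seeing the data, 401 regions were called 4 to 0 and 16 were called 0 to 4. Whether the replicate numbers mark a shared batch is not stated. Same-numbered samples of HIF-1α and HIF-2α/1α had correlations of deviations of 0.0766, 0.156 and 0.0352, too low in 2 of 3 pairs to be taken as pairing, although 5 of 6 samples correlated best with their own number and replicate 2 gave the longest list in each line. With the replicate block the DBD difference was still 4 members called, which the rule bounds, and 0.06 in log2 fold, while regions passing limma rose from 16 to 28. Leaving out 1 replicate moved the difference in members called between −7.5 and 13, that in log2 fold between 0.02 and 0.11, and the regions passing limma between 0 and 9. Without centring, the log2 fold difference turned to −0.051 and limma called 0 regions (566 at an unadjusted p below 0.05); with summit fragments per depth it called 753. The causes were not tested. Peak lists hold only what passed the caller, so a region without a peak may still carry signal below the threshold.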
